A study of Mus musculus with 12 samples.

Results

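The expression data of mouse colon held 4 groups in a 2 by 2 layout, without and with DSS and without and with ImP, and were used here to measure how far the effects of DSS and ImP departed from additivity. For each gene the change with DSS in the presence of ImP (DSS_ImP against ImP) was set against the change with DSS in its absence (DSS against Ctrl), and the difference on the log2 scale, called the log2 interaction below, is 0 where the separate changes add up. All 12 libraries and all genes entered the comparison, and 22279 of the 35841 genes in the table had enough counts to be tested. At a false discovery rate (FDR) of 0.05 no gene was called as departing from additivity, and the smallest adjusted p was 0.0506. The genes of smallest p included inflammatory and vascular genes such as Arg1, Selp and Ccl2, with a level in DSS_ImP above the predicted one (log2 interaction 2.40 to 4.06). They also included colonocyte genes such as Klf4, Vipr1 and Ceacam20, with a level below it (−0.89 to −1.18). For these 3 colonocyte genes the ImP mean was the highest, and the DSS_ImP libraries overlapped those of Ctrl.

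The libraries came from colon tissue of wild-type mice, 3 per group. The Ctrl group carried no treatment, the ImP group received ImP, the DSS group DSS, and the DSS_ImP group both. The series text gives 7 days of treatment of the colitis, either including ImP or not. Its title names Angelica dahurica polysaccharides, and the labels do not spell out ImP or say whether the libraries came from separate animals, so p-values measure the spread between these libraries. DSS is the usual short name of dextran sulfate sodium, a sulfated sugar polymer that damages the colon epithelium of mice when given in drinking water. The damage lets bacteria reach the mucosa, where macrophages and fibroblasts release cytokines and chemokines, activated endothelium captures neutrophils and monocytes, and matrix is broken down and rebuilt. The epithelium in turn loses differentiated colonocytes and goblet cells and induces antimicrobial proteins. Additivity on the log2 scale means that the folds multiply: the predicted level in DSS_ImP is the DSS mean times the ImP mean over the Ctrl mean.

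Counts per library summed to between 55419380 and 67406087, and levels are given as CPM, counts scaled to a common normalised library total. Sums over a gene list are scaled to the library total without that normalisation. Colon epithelial genes were present throughout: the 13 genes of the colon check summed to between 1.54% and 2.06% of each DSS_ImP library and between 2.08% and 3.16% of each other library, so the DSS_ImP libraries were the lowest. The libraries also differed in transcripts of neighbouring organs, which did not follow the 2 by 2 layout. Alb, the serum albumin made by the liver, stood at 43.5 to 46.2 CPM in Ctrl and 37.0 CPM in DSS 2, and at 1.10 CPM or less in every other library. Ctrb1, a digestive protease precursor of the exocrine pancreas, stood at 4.37 to 6.09 CPM in ImP and at 5.26 and 4.93 CPM in DSS 3 and DSS 5, was 0.0722 CPM in DSS 2 and 1.29 CPM in Ctrl 4, and had 0 counts in the other Ctrl libraries and in all DSS_ImP libraries. No DSS_ImP library carried either trace, so a batch marked by these transcripts and the DSS_ImP group cannot be told apart, and no batch holds all 4 groups. Hoxa13, a transcription factor gene of the hindmost gut, was 2.14, 2.44 and 8.60 CPM in Ctrl against 24.0 to 42.3 CPM in the other 9 libraries. Hoxb13, another gene of that region, was 0.509 to 17.0 CPM in Ctrl, 8.11 to 21.2 CPM in DSS, 32.7 to 125 CPM in ImP and 25.3 to 112 CPM in DSS_ImP. Every Ctrl library carried the liver trace and every ImP library the pancreatic one, so ImP without DSS and these traces cannot be told apart. Where a gene is said below to be raised or lowered, a difference between groups is meant. The part of these differences in the departures below was not tested.

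**Figure D1:**
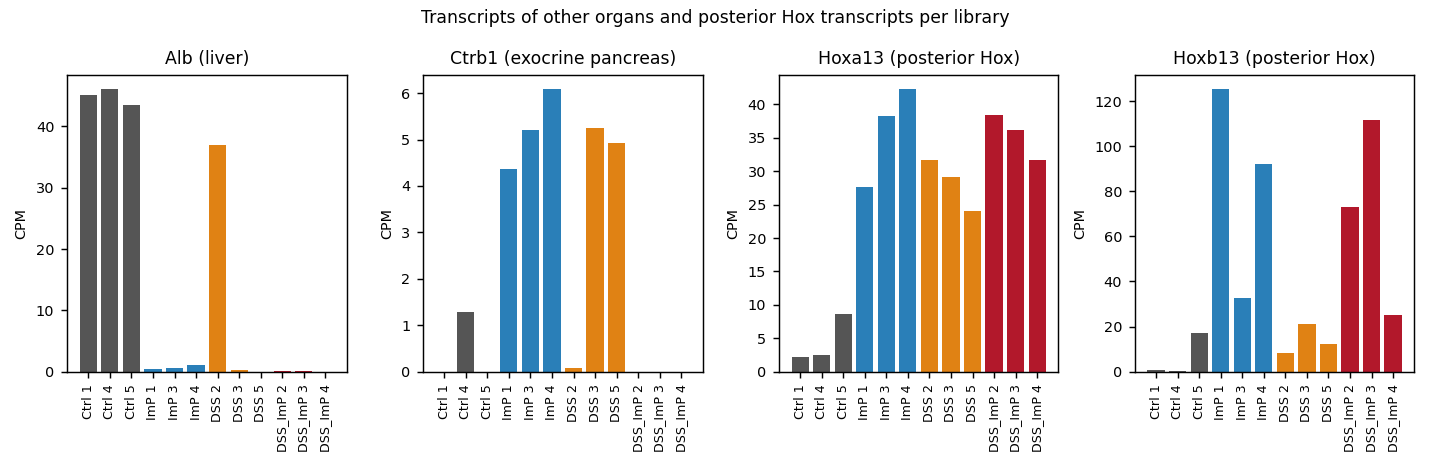
Level in CPM (linear axis from 0) of Alb, Ctrb1, Hoxa13 and Hoxb13 in each of the 12 libraries, coloured by group. Alb is high in the 3 Ctrl libraries and DSS 2, Ctrb1 in the 3 ImP libraries, DSS 3 and DSS 5, and Hoxa13 is below 10 CPM in Ctrl and above 20 CPM in the other libraries.

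In edgeR's quasi-likelihood test of the interaction, 0 of 22279 genes passed an FDR of 0.05 in either direction, and the lowest adjusted p of 0.0506 was shared by 10 genes. Before adjustment, 2631 genes (11.8% of those tested) had a p under 0.05, of which 1277 (5.73%) lay above the prediction and 1354 (6.08%) below it. At an FDR of 0.10, 85 genes (0.382%) lay above and 90 (0.404%) below. Another test gave another count: DESeq2 called 330 genes above (1.99% of the 16623 genes with an adjusted p) and 380 below (2.29%), and 709 of these 710 had a p under 0.05 in edgeR. limma on log2(FPKM + 1) called 72 genes, whereas limma with voom weights, edgeR with relative log expression factors and edgeR without a filter on low counts called 0. The count also turned on single libraries. Without DSS_ImP 4, 476 genes were called, 244 above and 232 below. Without Ctrl 5 there were 48 calls, without ImP 4 there were 30, without DSS 2 there were 8, and without Ctrl 1 or DSS 3 there was 1 each. The other 6 omissions gave 0.

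**Figure D2:**
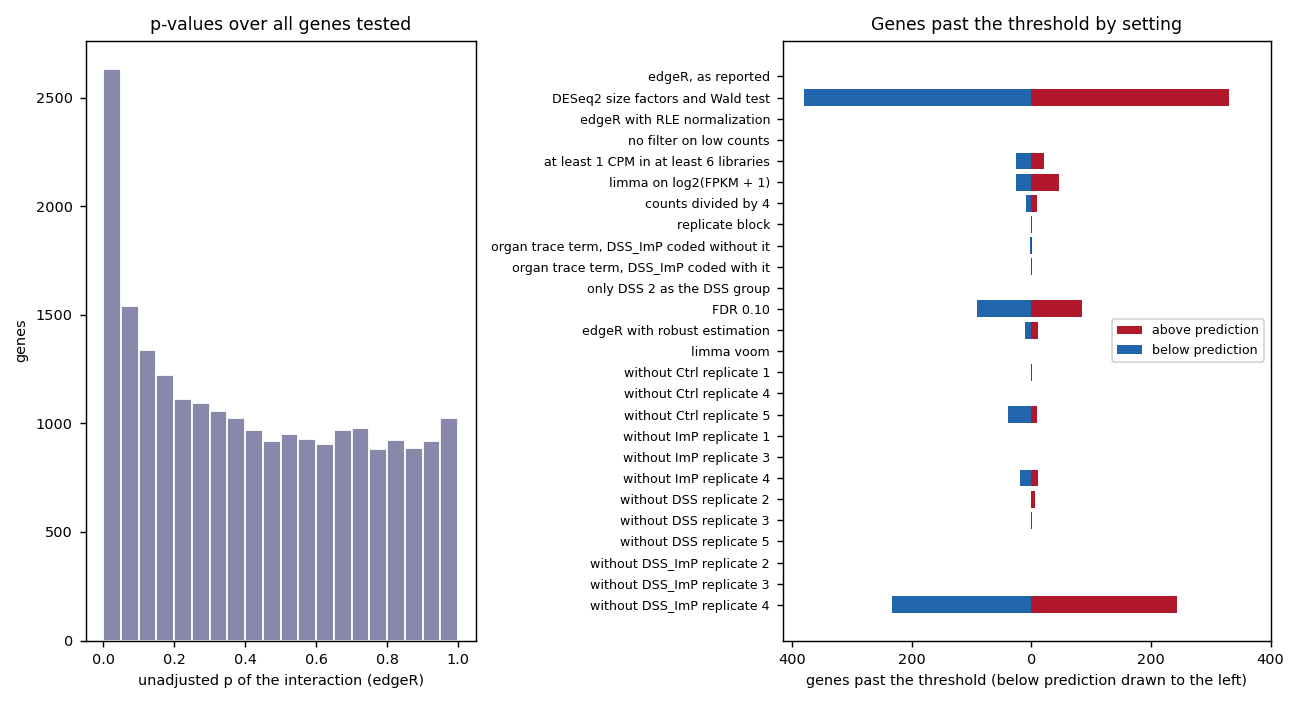
Left, number of genes (of 22279) in bins of the unadjusted edgeR p of the interaction, where the leftmost bin, p under 0.05, holds 2631 genes. Right, number of genes past the threshold in each alternative, above the prediction to the right and below it to the left, from 0 as reported to 710 with DESeq2.

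Since no gene was called, the genes named from here on were picked after that result was known, mostly by the smallest p, and their values describe the departures without a call. Groups that do not overlap in such genes follow in part from that choice, and no share over all genes is given. The named genes were taken from a set of 113, 85 of which DESeq2 called at an FDR of 0.05. Over all genes DESeq2 called 710 of the 16623 with an adjusted p. The set was picked mostly by small edgeR p on the same counts, so its higher share adds no support. Across 21870 genes with counts in every group, the DSS change without ImP and that with ImP had a Pearson correlation of 0.335 and a Spearman correlation of 0.303. This is a description across genes that share their libraries and are not independent, and the 2 changes have no library in common. The log2 change had a standard deviation (SD) over genes of 0.689 without ImP and 0.791 with it. The median log2 interaction over all genes was 0.03, and 52.7% of genes lay above 0.

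The departures took different forms, described by which group mean stood apart, that is, which group's removal left the other 3 log2 means closest together. Among the 1219 genes above the prediction at p under 0.05 with counts in every group, DSS_ImP stood apart in 821 (67.4%), against 40.6% of all genes. Ctrl stood apart in 148 of them (12.1%), against 27.6% of all genes. Among the 1285 such genes below the prediction, DSS_ImP stood apart in 616 (47.9%) and Ctrl in 375 (29.2%). In 454 of the 1277 genes above the prediction, DSS_ImP was called higher than both DSS and ImP, and in 269 of the 1354 below it was called lower than both. Calls in these single comparisons were made at an FDR of 0.05, which over all genes gave 3.99% higher and 4.04% lower for DSS_ImP against DSS, and 4.41% and 4.92% for DSS_ImP against ImP. For DSS against Ctrl the shares were 1.21% and 1.59%, and for ImP against Ctrl 1.06% and 0.929%. A different form was found in 88 genes below the prediction: DSS and ImP each were called higher than Ctrl, so the predicted level lay above both. The shares over all genes are for 1 comparison each. The share called in both comparisons at once was not computed, so the 454, 269 and 88 genes have no matching background. The group means also fix the interaction, so these counts describe it and add no support. On a linear scale, where the predicted level is DSS plus ImP minus Ctrl, all 1277 genes above and 1332 of the 1354 genes below kept the direction of departure. For the genes above this is largely fixed by arithmetic. Both single changes were positive in 269 and both negative in 645 of the 1219 with counts in every group. In such genes the linear prediction is the lower of the 2, so the agreement adds no support.

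**Figure D3:**
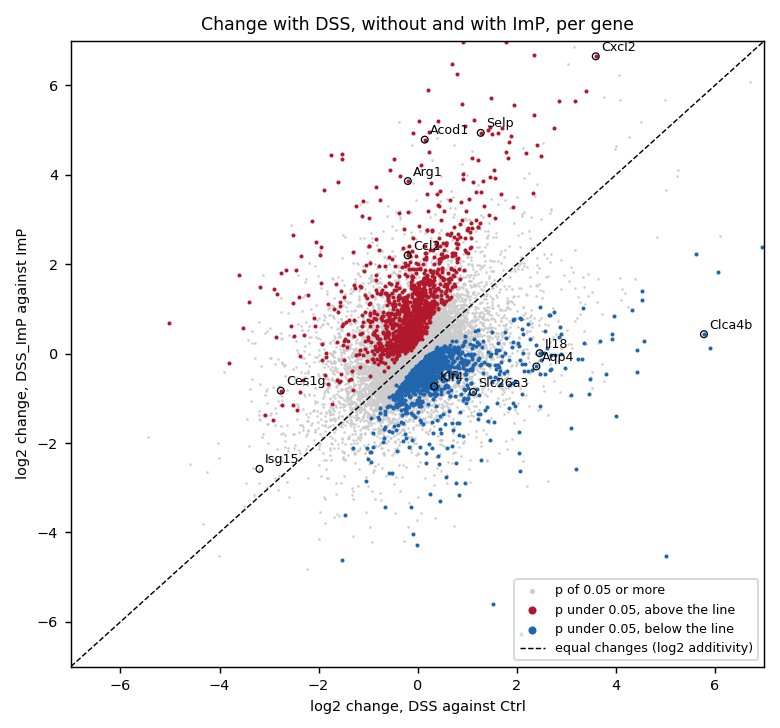
Log2 change with DSS in the presence of ImP (DSS_ImP against ImP, vertical) against that in its absence (DSS against Ctrl, horizontal) for 21870 genes with counts in every group, 10 of which lie outside the axes; red and blue mark an unadjusted p under 0.05 above and below the dashed line of equal changes. Arg1, Ccl2 and Acod1 sit near 0 on the horizontal axis and above 2 on the vertical, and Il18 and Aqp4 sit above 2 on the horizontal and near 0 on the vertical.

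Arg1, arginase 1, which splits arginine and is a marker of alternatively activated macrophages and of hepatocytes, had the smallest p above the prediction. Its level was 3.75, 4.33 and 3.72 CPM in Ctrl, 0.709, 1.3 and 0.939 CPM in ImP, 4.12, 3.91 and 2.25 CPM in DSS, and 16.8, 19.1 and 6.98 CPM in DSS_ImP. Every DSS_ImP library lay above every other library, and the ImP libraries lay below all others. ImP without DSS lowered Arg1 (log2 change −2.00, adjusted p = 0.024) and DSS with ImP raised it (3.86, adjusted p = 0.00037), while the DSS change without ImP was −0.20 (adjusted p = 0.87). The predicted level was 0.857 CPM, and the log2 interaction was 4.06 ± 0.52 (SE; adjusted p = 0.0506, and 1.38e-10 in DESeq2). Alb, which hepatocytes also make, stood at 43.5 to 46.2 CPM in Ctrl, 1.10 CPM or less in ImP and 0.0927 CPM or less in DSS_ImP. In DSS 2, DSS 3 and DSS 5 it was 37.0, 0.263 and 0 CPM, beside 4.12, 3.91 and 2.25 CPM of Arg1. An edgeR term for libraries with a pancreatic and no liver trace gave an Arg1 interaction of 3.38 with DSS_ImP coded without it (adjusted p = 0.497). With DSS_ImP coded with it, the value was 3.79 (adjusted p = 0.136). Such a term cannot separate the traces from the groups, and the part of the liver trace itself in the Arg1 departure was not tested.

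The other genes among the 12 of smallest p above the prediction are given by role and not in the order of p. Selp, which had the next smallest p, encodes P-selectin, on which leukocytes roll along activated endothelium. It stood at 0.713, 1.45 and 2.22 CPM in Ctrl, 0.887, 0.536 and 0.820 CPM in ImP, 3.63, 3.62 and 3.37 CPM in DSS, and 21.6, 31.1 and 16.3 CPM in DSS_ImP. The 4 groups overlapped only between Ctrl and ImP, and the log2 interaction was 3.67 ± 0.51 (adjusted p = 0.0506). Ccl2, a chemokine that draws monocytes, lay between 2.05 and 3.38 CPM in the 9 libraries of Ctrl, ImP and DSS and stood at 11.2, 16.3 and 8.24 CPM in DSS_ImP (2.40 ± 0.37, adjusted p = 0.0522). Thbs1, thrombospondin 1 of the wound matrix, was 44.6 to 71.3 CPM in Ctrl and ImP, 64.6 to 109 CPM in DSS, and 328, 756 and 448 CPM in DSS_ImP (2.65 ± 0.42, adjusted p = 0.0522). DSS_ImP lay apart from all other libraries for both genes. Acod1, which makes itaconate in activated macrophages, was 4.33, 5.4 and 6.22 CPM in Ctrl, 2.79, 3.35 and 1.79 CPM in ImP, 7.56, 7.59 and 2.48 CPM in DSS, and 48.7, 139 and 31.3 CPM in DSS_ImP. Its log2 interaction was 4.65 ± 0.76 (adjusted p = 0.0522), and its DSS_ImP libraries again exceeded all others, while DSS overlapped both Ctrl and ImP.

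Csf3, the growth factor of neutrophils (G-CSF), had 0 counts in all ImP libraries. It was 0.178, 0 and 0.0853 CPM in Ctrl, 0.126, 0.340 and 0.245 CPM in DSS, and 6.89, 17.5 and 8.30 CPM in DSS_ImP. With the ImP group held at a floor of 12 counts over the group and Ctrl taken as observed, its log2 interaction was at least 6.0 (adjusted p = 0.0522). Ctrl itself lay near its floor of 0.0707 CPM, and a lower true level there would lower this bound. Serpina3m, a protease inhibitor from a family of close copies among which reads may be split, was 0.179 to 0.256 CPM in Ctrl and ImP, 1.72 to 2.53 CPM in DSS, and 26.2, 45.4 and 10.7 CPM in DSS_ImP (4.08 ± 0.66). For both genes DSS_ImP lay above every other library. The remaining genes, some with a smaller p than Ccl2, Thbs1 and Acod1, were Chst11, a chondroitin sulfotransferase (2.62 ± 0.37), Rnd1, a small GTPase that regulates the actin skeleton (2.98 ± 0.46), Pde1a, a calcium-dependent phosphodiesterase (1.75 ± 0.26), Lrrc32, which holds latent TGF-β at the cell surface (1.67 ± 0.26), and the serine protease gene Prss23 (1.36 ± 0.20). Prss23 differed in form. It was 61.9, 58.1 and 71.8 CPM in Ctrl and 21.5 to 30.7 CPM in the other 9 libraries, so DSS and ImP each lowered it (−1.50, adjusted p = 0.00096, and −1.19, adjusted p = 0.0056) and DSS_ImP lay at the same level.

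**Figure D4:**
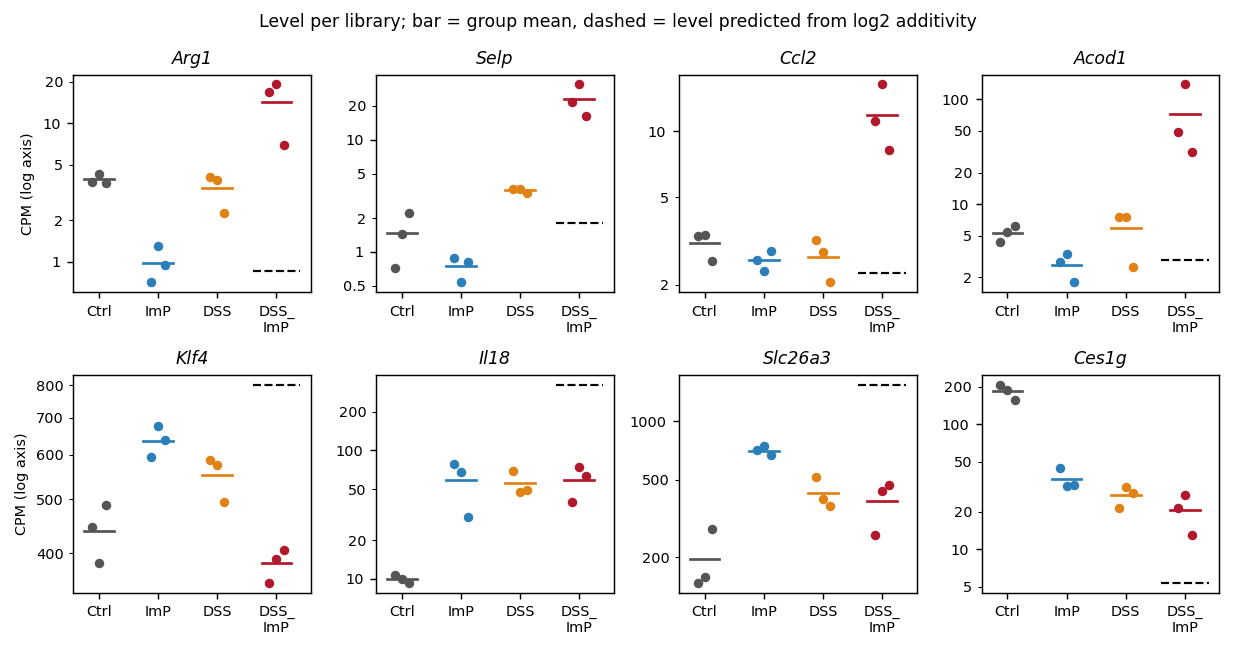
Level in CPM (log axis) of 8 genes in each library (dots) with the group mean (bar) and the level predicted for DSS_ImP from log2 additivity (dashed). DSS_ImP lies above the prediction for Arg1, Selp, Ccl2, Acod1 and Ces1g and below it for Klf4, Il18 and Slc26a3; for Il18 and Ces1g the Ctrl libraries lie apart from the other 9.

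Below the prediction, the smallest p belonged to Sectm1b, which stood at 383, 371 and 374 CPM in Ctrl, 398, 349 and 380 CPM in ImP, 240, 222 and 248 CPM in DSS, and 110, 121 and 129 CPM in DSS_ImP. Its log2 change with ImP alone was −0.00, DSS lowered it (−0.67, adjusted p = 0.0030), and DSS with ImP lowered it by more (−1.64, adjusted p = 8.1e-06), giving a log2 interaction of −0.98 ± 0.12 (adjusted p = 0.0506). In another group of genes the level was higher with either agent than with both. Klf4, a transcription factor of differentiated surface and goblet cells, was 445, 384 and 488 CPM in Ctrl, 596, 676 and 638 CPM in ImP, 588, 575 and 495 CPM in DSS, and 354, 391 and 405 CPM in DSS_ImP. ImP raised it without DSS (0.54, adjusted p = 0.033), and the DSS change without ImP was 0.33 (adjusted p = 0.15). Its DSS_ImP libraries lay below all ImP and DSS libraries and overlapped those of Ctrl, against a predicted 802 CPM (−1.07 ± 0.16, adjusted p = 0.0506). Shroom3, which shapes the apical side of epithelial cells, the clock gene Per2, Vipr1, a receptor of vasoactive intestinal peptide, Ceacam20, an adhesion protein of the epithelial brush border, and Fam83c likewise had means highest in ImP and next in DSS (log2 interactions from −0.72 ± 0.11 for Per2 to −1.49 ± 0.24 for Fam83c). For Vipr1 the levels were 180, 207 and 224 CPM in Ctrl, 308, 290 and 310 CPM in ImP, 270, 256 and 282 CPM in DSS, and 204, 210 and 232 CPM in DSS_ImP, so DSS_ImP overlapped Ctrl and lay below ImP and DSS.

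A further form was a level higher in ImP and in DSS than in Ctrl, with that in DSS_ImP close to both. Tnip3, an inhibitor of NF-κB signalling, was 2.87, 3.93 and 5.00 CPM in Ctrl, 47.1, 27.3 and 20.8 CPM in ImP, 29.3, 30.1 and 28.4 CPM in DSS, and 31.0, 55.8 and 42.0 CPM in DSS_ImP. The Ctrl libraries lay below all others, and DSS_ImP lay near ImP and DSS rather than at the predicted 236 CPM (−2.46 ± 0.42, adjusted p = 0.0572). Pla2g5, a secreted phospholipase A2 (−2.49 ± 0.41), the desaturase gene Fads2 (−1.17 ± 0.19), the kinase gene Eef2k (−0.74 ± 0.12) and Trp53i11 (−1.15 ± 0.19) had the same form. Ctrl was also the group that stood apart in Hoxa13. Within the DSS group, DSS 2 shared the liver trace of Ctrl and was placed differently from gene to gene: its Tnip3 and Pla2g5 levels, 29.3 and 52.6 CPM, were close to those of DSS 3 and DSS 5, whereas several macrophage and stromal genes described below were lower in DSS 2 than in DSS 3 and DSS 5. The part of the trace in either was not tested.

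The gene lists below were drawn up with earlier results of these data known, so each is described by its counts beside the background of 5.73% above and 6.08% below at p under 0.05, and by its median beside 0.03 for all genes. In bulk tissue, a change in the number of cells of a type and a change in RNA per cell cannot be told apart. Of the 21 neutrophil markers tested, 10 lay above the prediction at p under 0.05 and 2 below, with a median log2 interaction of 2.26. Retnlg, a secreted resistin-like protein of neutrophils, was 0.0975 to 0.981 CPM in Ctrl and ImP, 1.67 to 3.96 CPM in DSS, and 57.8, 133 and 26.3 CPM in DSS_ImP (5.41 ± 1.07, adjusted p = 0.0744). Clec4e, an innate receptor of myeloid cells (4.08 ± 0.79), the siderophore-binding Lcn2 (2.81 ± 0.62) and the interleukin-1 decoy receptor Il1r2 (3.42 ± 0.76) were likewise highest in DSS_ImP. The 2 members below were Ly6g and Cd177, with means in Ctrl, ImP, DSS and DSS_ImP of 3.47, 125, 70.1 and 245 CPM for Ly6g and 114, 179, 265 and 164 CPM for Cd177. S100a9, a calcium-binding protein that neutrophils carry in bulk, shows how wide the error is where the Ctrl level is near the floor. It stood at 0.125, 0.164 and 0 CPM in Ctrl, 1.5, 0.390 and 0.253 CPM in ImP, 10.4, 15.2 and 4.48 CPM in DSS, and 157, 440 and 113 CPM in DSS_ImP. DSS raised it without ImP (6.70, adjusted p = 0.0047) and with it (8.38, adjusted p = 0.00031), and the log2 interaction was 1.68 ± 1.67 (adjusted p = 0.77). Ngp, a neutrophil granule protein, had 0 counts in Ctrl and was at or under the floor in ImP, so no interaction is given; it was 0.343, 0.155 and 0.169 CPM in DSS and 29.1, 89.3 and 16.5 CPM in DSS_ImP.

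Chemokines and cytokines that recruit or activate these cells followed. Among 14 neutrophil chemokines and colony-stimulating factors, 5 lay above at p under 0.05 and 1 below (median 0.88). Cxcl3, a ligand of the neutrophil receptor Cxcr2, was 0.0447 to 0.419 CPM in Ctrl and ImP, 0.613 to 1.3 CPM in DSS, and 23.8, 52.9 and 18.7 CPM in DSS_ImP (4.57 ± 1.0). Cxcl2, its close relative, was 0.268 to 1.63 CPM in Ctrl and ImP, 2.24 to 8.67 CPM in DSS, and 68.0, 157 and 81.3 CPM in DSS_ImP (3.06 ± 0.92). Ccl3 (3.10 ± 0.69) and Ccl4 (4.34 ± 0.82), which attract monocytes and lymphocytes, had DSS changes without ImP of 0.92 (adjusted p = 0.40) and −0.35 (adjusted p = 0.85). The adjusted p of the interaction was 0.064 to 0.195 for these 4 genes. In the interleukin-1 and interleukin-6 families 10 of 23 members lay above at p under 0.05 and 1 below (median 1.03). Il1b was 3.57 to 5.84 CPM in Ctrl and ImP, 12.1, 23.7 and 5.61 CPM in DSS, and 97.8, 212 and 109 CPM in DSS_ImP, against a predicted 19.0 CPM (2.88 ± 0.60, adjusted p = 0.0819). Its receptor gene Il1r1 was 20.7 to 32.0 CPM in the 9 libraries of the other groups and 67.7, 116 and 59.5 CPM in DSS_ImP (1.56 ± 0.32). The member below was Il18, an epithelial cytokine, at 9.35 to 10.7 CPM in Ctrl, 78.3, 68.0 and 30.0 CPM in ImP, 68.9, 47.7 and 49.2 CPM in DSS, and 40.0, 74.8 and 62.8 CPM in DSS_ImP (−2.45 ± 0.44, adjusted p = 0.0595). Only the Ctrl libraries lay apart for Il18.

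Of 25 monocyte and macrophage markers, 12 lay above the prediction at p under 0.05 and 1 below, with a median of 0.68. Itgam, the CD11b integrin chain of myeloid cells, was 14.5 to 28.7 CPM in the other groups and 90.4, 145 and 63.8 CPM in DSS_ImP (1.98 ± 0.38, adjusted p = 0.0659). Fcgr3, an antibody receptor, was 16 to 26.4 CPM in the other groups and 54.4, 75.4 and 38.6 CPM in DSS_ImP (1.52 ± 0.35). Spp1, osteopontin, had its low group in ImP, at 0.242, 0.260 and 0.849 CPM against 2.14 to 10.3 CPM in Ctrl and DSS and 13.6, 25.6 and 7.72 CPM in DSS_ImP (4.14 ± 0.81). Summed over the list, the macrophage markers took 1205 to 2391 CPM in DSS_ImP and 640 to 999 CPM in all other libraries, and the neutrophil list took 879 to 2422 CPM against 118 to 508 CPM. Outside DSS_ImP, Ly6g and Cd177 made up most of the neutrophil sum by the means given above, although both lay below the prediction. S100a9 of the neutrophils stood at only 0.253 to 1.5 CPM in ImP. Within DSS, the macrophage sum of DSS 2 was 664 CPM, inside the 640 to 702 CPM of Ctrl, against 916 and 950 CPM in DSS 3 and DSS 5. Itgam likewise was 17.1 CPM in DSS 2, inside the 16.3 to 18.5 CPM of Ctrl, against 28.7 and 27.7 CPM. The T and NK, B and plasma, and eosinophil and mast cell lists lay near the background: 1 above and 1 below of 23 T and NK cell markers (median −0.15), 1 below of 21 B and plasma cell markers (median −0.10), and 1 in each direction of 13 eosinophil and mast cell markers (median −0.11). Each of these medians changed sign on leaving out a single library. The T cell receptor chain gene Cd3e was 3.4, 2.55 and 3.91 CPM in DSS_ImP and 5.67 to 8.15 CPM elsewhere (−0.71 ± 0.27, adjusted p = 0.325).

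Stromal genes had many departures of small p for their number. Of 30 collagens and matrix genes, 29 lay above 0, against 52.7% of all genes, and 21 lay above the prediction at p under 0.05 (median 0.94). Lox, which cross-links collagen, was 3.31 to 5.14 CPM in Ctrl and ImP, 15.1, 15.9 and 14.2 CPM in DSS, and 34.4, 79.3 and 32.5 CPM in DSS_ImP (1.9 ± 0.42, adjusted p = 0.094). Decorin, Dcn, was 136 to 232 CPM in the other groups and 414, 715 and 357 CPM in DSS_ImP (1.42 ± 0.35), and the basement membrane collagen Col18a1 was 31.8 to 48.0 CPM in Ctrl and ImP, 55.5 to 114 CPM in DSS and 165 to 442 CPM in DSS_ImP (1.60 ± 0.44). DSS_ImP overlapped no other group for these genes, which were picked by small p. The lowest Dcn was that of DSS 2, 136 CPM, against 209 and 232 CPM in DSS 3 and DSS 5. Of 26 matrix proteases and inhibitors, 19 lay above at p under 0.05 (median 1.45). Adamts4, which cleaves proteoglycans, was 1.46 to 3.4 CPM in Ctrl and ImP, 5.65 to 9.01 CPM in DSS, and 43.4, 70.4 and 28.4 CPM in DSS_ImP (2.57 ± 0.50, adjusted p = 0.0682). The cell surface protease Adam8 (2.82 ± 0.51) and the urokinase receptor gene Plaur (1.74 ± 0.38) were also highest in DSS_ImP. All 20 endothelial markers lay above 0, 10 of them at p under 0.05 (median 0.73), and their sum was 417 to 728 CPM in DSS_ImP and 197 to 308 CPM in the other libraries. Vcam1, a leukocyte adhesion molecule, was 16.7 to 32.8 CPM in the other groups and 102, 93.2 and 49.8 CPM in DSS_ImP (1.57 ± 0.41), whereas Cdh5, the cadherin of endothelial junctions, was 11.3 to 17.3 CPM and 25.1 to 33.6 CPM (0.79 ± 0.26). DSS 2 again had the lowest Vcam1, against 27.2 and 25.4 CPM in DSS 3 and DSS 5. Adhesion gene Icam1 lay between them at 1.09 ± 0.32.

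In smooth muscle markers 3 of 18 lay below the prediction at p under 0.05 and none above (median −0.41). For desmin, Des, ImP was the high group, at 261, 625 and 426 CPM against 151 to 333 CPM in the other 9 libraries (−0.99 ± 0.41, adjusted p = 0.356), and Synpo2 had the same pattern. Of 20 enteric neuron and glia markers 3 lay above at p under 0.05 (median 0.29), among them the neuropeptide gene Vip at 26.2 to 73.6 CPM in DSS_ImP against 12.4 to 24.0 CPM elsewhere (1.54 ± 0.42) and the glial gene Gfap (1.49 ± 0.59). This median turned to −1.48 or −0.33 with a term for the organ trace, depending on how DSS_ImP was coded, and reached −0.13 on leaving out a library.

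Absorptive colonocyte genes lay mostly on the other side. Of 35 tested, 30 lay below 0 and 22 lay below the prediction at p under 0.05, with a median of −0.54. Slc26a3, the chloride and bicarbonate exchanger of the colon surface, was 149, 160 and 280 CPM in Ctrl, 709, 740 and 669 CPM in ImP, 516, 396 and 365 CPM in DSS, and 260, 437 and 472 CPM in DSS_ImP. ImP raised it without DSS (1.85, adjusted p = 0.0080), DSS raised it without ImP (1.12, adjusted p = 0.040), and the combination lay at 390 CPM on average, not at the predicted 1535 CPM (−1.98 ± 0.36, adjusted p = 0.0595). The water channel gene Aqp4 was 76.1, 58.3 and 160 CPM in Ctrl and between 401 and 906 CPM in every other library (−2.68 ± 0.48, adjusted p = 0.0586). Hsd11b2, which inactivates glucocorticoid, was raised by DSS without ImP, at 408, 296 and 374 CPM against 159 to 185 CPM in Ctrl, 183 to 243 CPM in ImP and 179 to 229 CPM in DSS_ImP (−1.07 ± 0.20, adjusted p = 0.0642). The 22 genes thus differed in form: DSS_ImP stood apart in 9, Ctrl in 6, ImP in 6 and DSS in 1. Clca4b, from a cluster of near-identical genes whose reads may be split, covered the widest range. It was 14.9 to 24.5 CPM in Ctrl, 2223, 454 and 45.5 CPM in ImP, 1065 to 1224 CPM in DSS, and 470, 1870 and 1338 CPM in DSS_ImP, and its large departure carried a large error (−5.35 ± 1.32, adjusted p = 0.133). Of the general epithelial and colon genes in the tissue check, 6 of 13 lay below at p under 0.05 (median −0.47), among them Aqp8 (−2.69 ± 0.62), Cdh1 (−0.47 ± 0.13) and Krt8 (−0.61 ± 0.21). The lower sum of this check in DSS_ImP, given above, goes with the negative medians of the absorptive, goblet and junction lists, and its part in them was not tested.

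All 22 goblet cell and mucus genes lay below 0, 11 of them at p under 0.05 (median −0.52). Muc1, a membrane mucin, was 1.16, 1.58 and 2.54 CPM in Ctrl, 22.5, 10.1 and 13.7 CPM in ImP, 8.29, 4.75 and 7.65 CPM in DSS, and 8.31, 12.8 and 9.32 CPM in DSS_ImP (−2.57 ± 0.49, adjusted p = 0.0659). Retnlb, a bactericidal goblet cell protein, was 110 to 140 CPM in Ctrl, 178 to 585 CPM in ImP, 384 to 681 CPM in DSS and 175 to 434 CPM in DSS_ImP (−2.41 ± 0.57, adjusted p = 0.114). Best2, a goblet cell anion channel, was likewise low in Ctrl (−1.55 ± 0.44), while the membrane mucin Muc3 was high in ImP (−0.76 ± 0.21). Muc2, the gel-forming mucin, was 12318 to 15672 CPM in Ctrl, 8807 to 16107 CPM in ImP, 9581 to 12631 CPM in DSS and 5564 to 9046 CPM in DSS_ImP, and its log2 interaction was −0.49 ± 0.32 (adjusted p = 0.611). Junction genes were similar, with 13 of 23 below and 1 above at p under 0.05 (median −0.41): the claudin gene Cldn23 was 19.7 to 23.9 CPM in DSS_ImP and 35.9 to 54.4 CPM elsewhere (−0.93 ± 0.20, adjusted p = 0.0891), with smaller departures for the tight junction genes Marveld3 (−0.75 ± 0.19) and Marveld2 (−0.44 ± 0.12).

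Epithelial antimicrobial genes had the lowest median of the colon lists, −1.06, with 13 of 28 below and 2 above at p under 0.05. Reg3b, a bactericidal lectin, had means of 1826 CPM in Ctrl, 3878 CPM in ImP, 11658 CPM in DSS and 3020 CPM in DSS_ImP (−3.04 ± 1.03, adjusted p = 0.25). The acute phase gene Saa1, which has close copies, was 223 to 237 CPM in Ctrl, 558 to 1637 CPM in ImP, 538 to 1143 CPM in DSS and 397 to 994 CPM in DSS_ImP (−2.59 ± 0.57, adjusted p = 0.095). Pigr, which carries IgA across the epithelium, was 2544 to 3198 CPM in DSS_ImP and 3490 to 4925 CPM in DSS, without overlap (−1.06 ± 0.24). In 8 of the 14 members of the list with p under 0.05 and counts in every group, Ctrl stood apart, and the same group stood apart in the posterior Hox genes. Of 12 posterior Hox genes, a list added after the values were seen, 3 lay below at p under 0.05 and all 3 had Ctrl apart: Hoxa13 (−2.71 ± 0.57), Hoxa10 (−1.76 ± 0.44) and Hoxa11 (−1.29 ± 0.36). The list's median was −0.13 and ran from −0.79 to 1.02 over the omissions. Whether position along the gut has a part in the departures of genes low in Ctrl was not tested.

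Cornified and wound-type epithelial genes split, with 6 of 27 below and 3 above (median −0.48). Sprr2a3, a cell envelope gene with near-identical copies, was 219 to 267 CPM in Ctrl and 370 to 641 CPM elsewhere (−1.19 ± 0.22), and its copy Sprr2a2 had −0.81 ± 0.22. The growth factor gene Ereg was 102, 307 and 141 CPM in DSS_ImP against 4.33 to 36.9 CPM elsewhere (2.57 ± 0.66), and the alarmin gene Il33 19.4, 47.0 and 33.5 CPM against 3.98 to 13.3 CPM (2.07 ± 0.48). Tuft cell genes also split, 3 above and 3 below of 18 (median 0.10). Trpm5, the taste-type cation channel of tuft cells, was 2.25, 1.89 and 2.48 CPM in DSS_ImP against 5.16 to 13.0 CPM elsewhere (−1.26 ± 0.30), with Sh2d6 alike (−0.87 ± 0.33). The members above, Cd300lf (2.58 ± 0.42) and Alox5ap (2.13 ± 0.55), are also expressed by myeloid cells. None of 19 enteroendocrine genes had a p under 0.05 (median 0.26). Of 22 crypt stem cell and Wnt genes 3 lay above (median −0.03), among them Cd44 (0.85 ± 0.22) and Bmi1 (0.41 ± 0.12).

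**Figure D5:**
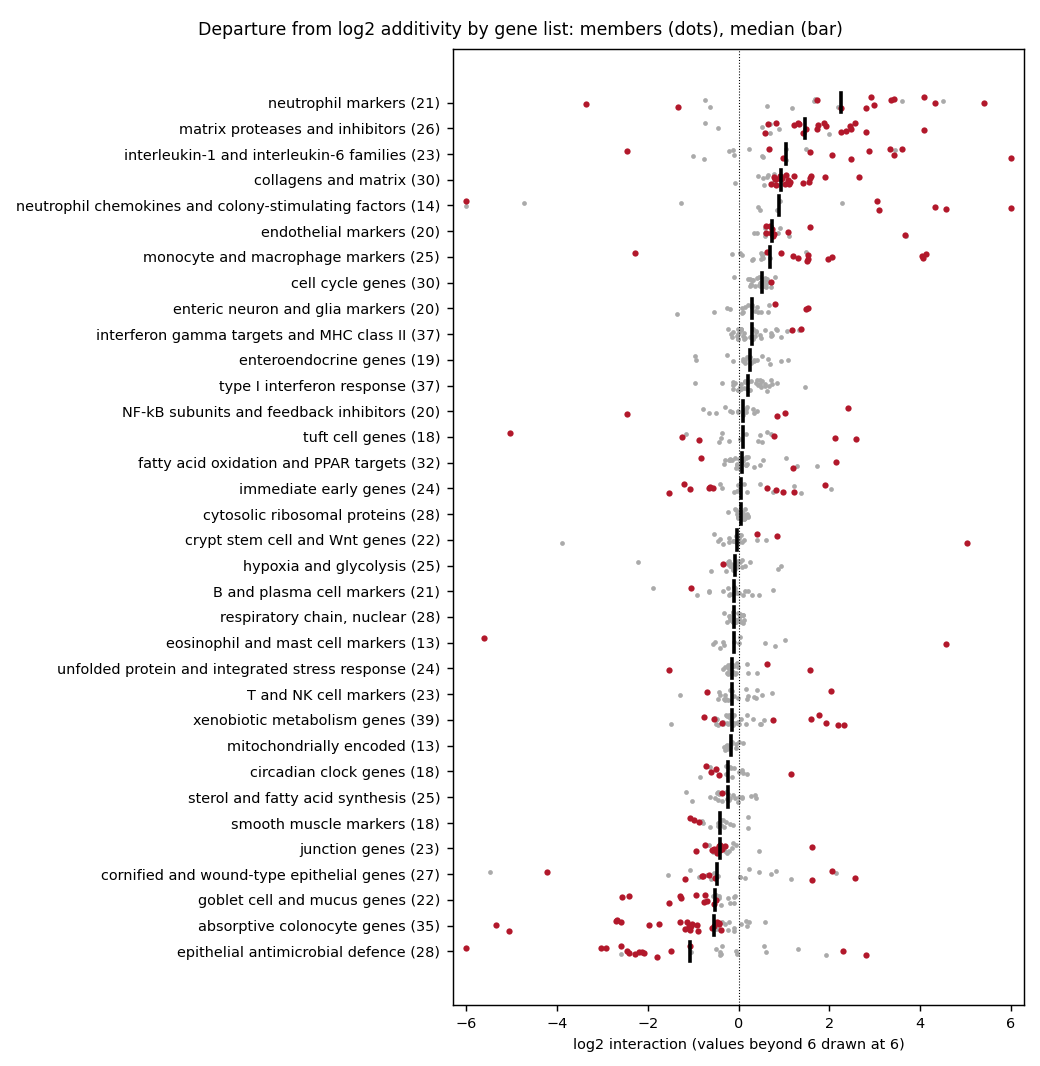
Fitted log2 interaction of every tested member (dots; red, unadjusted p under 0.05; number tested in brackets) with the list median (bar), values beyond 6 drawn at 6 and genes with 0 counts in a group at their fitted value. The neutrophil list has the highest median at 2.26, the antimicrobial list the lowest at −1.06, and the type I interferon list has no red dot.

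The interferon response had a large DSS change and no member with a departure of small p. Of 37 type I interferon response genes, 0 had a p under 0.05 in edgeR and DESeq2 called 0, while 29 lay above 0, against 52.7% of all genes. The median log2 DSS change was −1.98 without ImP and −1.64 with it, and the median interaction was 0.20. With a term for the organ trace that median was 0.78 or 0.48, depending on how DSS_ImP was coded, and it reached −0.03 on leaving out a library. Isg15, a ubiquitin-like interferon-induced protein, was 106, 99.9 and 82.5 CPM in Ctrl, 81.3, 49.9 and 142 CPM in ImP, 9.22, 13.9 and 8.35 CPM in DSS, and 25.8, 10.2 and 9.69 CPM in DSS_ImP. DSS lowered it without ImP (−3.19, adjusted p = 0.0035) and DSS_ImP was lower than ImP (−2.58, adjusted p = 0.0033), and the interaction of 0.62 ± 0.57 became −0.010 without DSS_ImP 2. Ifi44 was alike (0.58 ± 0.61). A departure of the size of these estimates was not detectable at these errors. Of 37 interferon gamma targets and MHC class II genes, 2 lay above at p under 0.05, near the background share, and DESeq2 called 0 (list median 0.28). They were Gbp6 (1.17 ± 0.50, adjusted p = 0.379) and Iigp1 (1.37 ± 0.59, adjusted p = 0.384), both GTPases of intracellular defence.

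Metabolic lists differed in how many departures of small p they held. In xenobiotic metabolism 6 of 39 lay above, more than the background share, and 3 below (median −0.15). The carboxylesterase gene Ces1g was 208, 190 and 155 CPM in Ctrl and 13.0 to 45.0 CPM in the other 9 libraries, so that each agent lowered it (ImP −2.33, adjusted p = 0.0047; DSS −2.76, adjusted p = 0.00094) and the combination did not reach the predicted 5.39 CPM (1.93 ± 0.35, adjusted p = 0.0588). Cyp4b1, a cytochrome P450, had the same form at 45.3 to 53.2 CPM in Ctrl and 2.66 to 13.0 CPM elsewhere (1.58 ± 0.49). Gsta4 (0.77 ± 0.24) was also highest in Ctrl, and Ces2a was lowest in DSS_ImP at 62.7 to 82.3 CPM (−0.77 ± 0.24). In fatty acid oxidation 2 of 32 lay above and 1 below (median 0.07), Angptl4 (2.14 ± 0.53), Acot1 (1.19 ± 0.46) and Ppard (−0.84 ± 0.21). These counts, and those of the sterol and hypoxia lists that follow, were near the background shares. The sterol and fatty acid synthesis list had 1 of 25 below (median −0.24; Dhcr7, −0.36 ± 0.15), hypoxia and glycolysis 1 of 25 below (median −0.08; Pfkp, −0.34 ± 0.15), and the unfolded protein and stress list 2 of 24 above and 1 below (median −0.15), Ddit3 among the former (0.62 ± 0.21) and Atf3 the latter (−1.55 ± 0.52). Of 30 cell cycle genes 29 lay above 0 but 1, Mcm4, at p under 0.05 (0.72 ± 0.28; median 0.51). None of 28 nuclear respiratory chain genes (median −0.10), 13 mitochondrially encoded genes (median −0.17) or 28 cytosolic ribosomal protein genes (median 0.05) had a p under 0.05. The mitochondrially encoded genes summed to 45816 to 50570 CPM in DSS_ImP and 52969 to 73498 CPM in the other libraries.

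Among regulators, NF-κB subunits and feedback inhibitors had 3 of 20 above and 1 below (median 0.11). The prostaglandin synthase gene Ptgs2 was 38.8, 74.7 and 111 CPM in DSS_ImP and 4.30 to 18.7 CPM elsewhere (2.42 ± 0.63), and the inhibitor genes Nfkbie (1.03 ± 0.39) and Nfkbid (0.85 ± 0.37) had smaller departures. Immediate early genes split into 5 above and 6 below of 24 (median 0.06), over the background share in both directions, with the nuclear receptor Nr4a1 above (1.91 ± 0.43) and Jun (−0.66 ± 0.19) and Klf6 (−0.62 ± 0.17) below. Of 18 circadian clock genes 4 lay below, over the background share, and 1 above (median −0.24). Per3 (−0.60 ± 0.23) and Tef (−0.50 ± 0.16) were lowest in DSS_ImP, at 36.2 to 37.6 CPM and 81.1 to 88.5 CPM, against 46.3 to 77.2 CPM and 111 to 154 CPM elsewhere, and Nfil3 was highest there (1.14 ± 0.31).

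Transcripts of other organs, whose distribution over the libraries is given above, also departed. Of 16 pancreatic genes 13 lay below at p under 0.05, and their median of −10.8 became −6.89 with genes at 0 in a group held at their bound. Of 20 liver genes 4 lay above (median 1.76), of 8 erythroid genes 6 above (median 1.52), where ImP was the low group at a summed 29.0 to 48.6 CPM against 81.3 to 266 CPM elsewhere, and of 13 skeletal muscle and adipocyte genes 1 below (median −1.06).

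The size of departure that could be seen depended on level. The median SE of the log2 interaction was 1.16 for genes under 1 CPM, 0.436 from 1 to 10 CPM, 0.189 from 10 to 100 CPM and 0.168 above 100 CPM. Of the genes with p under 0.05, those above the prediction outnumbered those below at 1 to 10 CPM, 455 to 170, and the order turned above 100 CPM, 67 to 394.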

How the data were processed

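RNA of mouse colon was sequenced in 12 libraries of 4 groups. The authors deposited estimated counts per gene, whole numbers not scaled to a common library total, and, per the file headers, FPKM values scaled for transcript length and library. The submitters' processing notes name StringTie 1.3.4d, HISAT2 2.0.4, cutadapt 1.9 and build GRCm38; no positions are given. Libraries were made from oligo(dT)-selected RNA by a strand-marking method, per the labels' protocols. No source here states a strand setting for the counting, so reads of overlapping antisense genes cannot be told apart.

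Members, lists and alternatives were chosen with earlier results of these data known. In R 4.3.3 with edgeR 4.0.16, genes were filtered with filterByExpr by group and normalised with TMM (factors 0.921 to 1.12), and the quasi-likelihood test was fitted over all 12 libraries with 1 coefficient per group (common biological coefficient of variation 0.312). The contrast was (DSS_ImP minus ImP) minus (DSS minus Ctrl), two-sided, with Benjamini-Hochberg adjustment over 22279 genes. Each SE was derived from the log2 change and the F statistic (change divided by root F). Simple changes come from the same fit and share libraries with the interaction. Predicted levels use mean CPM. The script was tested on simulated data. The table held 35841 genes, 1627 of them at 0 in all libraries.

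Counts of 4 were in excess (12215, against 7060 of 3 and 4182 of 5), so about 4 counts were taken to stand for a read pair. The 0 calls come from the undivided counts, and counts divided by 4 gave 18 calls among 17915 genes tested. The floor was 12 counts over a group, 0.0570 to 0.0707 CPM, and covers counting error only. The rule fixed for named genes asked for calls and named none. Named instead were the 12 genes of smallest p in each direction with a symbol that is no predicted-gene name and at least 1 FPKM in a group, up to 4 members of each list (organ traces left out) with p under 0.05, 7 genes chosen after their values were seen (Isg15, Ifi44, Cxcl2, S100a9, Ngp, Clca4b, Muc2), and single values of other list members. Some members that met this rule are not reported here. Of 906 listed symbols 898 matched. Replicate libraries had Spearman correlations of 0.975 to 0.983 and differed by more than counting error (14.0 to 29.6 chi-square per degree of freedom). Alternatives used DESeq2 1.42.0, limma 3.58.1, other filters, scalings and units, terms for organ traces, a replicate block and omission of each library.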

Additional observations from a re-analysis of the deposited data

How the results depend on the processing

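The 0 calls of the interaction held with RLE factors, without a filter, with limma voom and with DSS 2 as the only DSS library. Calls appeared in other settings: 710 with DESeq2 (330 above, 380 below), 72 with limma on log2(FPKM + 1) (46 and 26), 46 with at least 1 CPM in 6 libraries (21 and 25), 18 with counts divided by 4 (9 and 9), and, chosen after seeing the data, 22 with robust estimation (12 and 10) and 175 at an FDR of 0.10 (85 and 90). A term for the libraries with a pancreatic and no liver trace gave 3 (1 above, 2 below: Alb, Fabp1, Gm15884) with DSS_ImP coded without it and 1 (above, Gm15884) with DSS_ImP coded with it. Leaving out each library gave 0 to 476 calls, with 0 for 6 of the libraries, 0 to 244 above and 0 to 232 below; why DSS_ImP 4 weighed most was not tested. The replicate block gave 2 calls, both above (Arg1 and Hp). Same-numbered libraries did not deviate together over all genes (9 pairs, correlations −0.110 to 0.0827). A correlation over all genes cannot exclude a shared preparation that affects some of them, and the labels give only a number. The cause of these shifts was not tested.

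Without DSS_ImP 2 the sign of Isg15 (−0.010) and Ifi44 (−0.028) reversed; over all omissions they ran to 1.06 each. The list medians of neutrophil, chemokine, interleukin, macrophage, matrix, protease and endothelial genes stayed above 0, and those of absorptive, goblet, antimicrobial and junction genes below 0, in all 24 settings. Their size moved: with the organ trace term and DSS_ImP coded without it, the macrophage median was 2.0, the matrix median 2.15 and the cell cycle median 1.94. Some of the other medians, but not all, changed sign in at least 1 setting. With that coding the enteric neuron and glia median was −1.48, the tuft median −0.50, the liver median −3.14, the pancreatic median 5.46, the erythroid median −0.02 and the skeletal muscle and adipocyte median 2.11. On leaving out a library, medians ran from −0.47 to 0.69 for B and plasma cells, −0.79 to 1.02 for posterior Hox genes, −0.37 to 0.17 for T and NK cells and −0.13 to 0.23 for tuft cells. Signs also changed for the eosinophil and mast cell, crypt, ribosomal protein, fatty acid oxidation, hypoxia, both interferon, NF-κB and nuclear respiratory chain lists. Depth limits genes under 1 CPM most. With 3 libraries per group, and DSS_ImP differing from all other groups in the organ traces, neither the 0 calls of edgeR nor the calls of DESeq2 can be set apart from those traces.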
